A study of Mus musculus with 6 samples.

Results

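Narrow wildtype-specific regions of 5-hydroxymethylcytosine (5hmC) were described in the mouse cerebellum. They are the regions under 500 bp long, from first to last base, in the list that the authors deposited as specific to wildtype animals. The list held 8658 regions, and 1378 of them (15.9%, 95% exact binomial interval 15.2% to 16.7%) were narrow. The other 7280 regions were 500 bp or longer, and both deposited lists together held 12969. The members were selected on width, a value measured in the same comparison of genotypes that gave their position and score. Widths are therefore given as a description, and no test was made of widths, positions or scores.

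The study captured 5hmC from cerebellar DNA of 6 C57BL/6 mice aged 16 weeks. The control group comprised 3 wildtype littermates, and the other group comprised 3 mice titled rCGG with the genotype FXTAS, fragile X-associated tremor/ataxia syndrome. The labels name neither the promoter nor the length of the repeat. As generally described for rCGG mice, the expanded repeat is expressed from the Pcp2 promoter in Purkinje cells, a small minority of cerebellar cells, so DNA of the whole cerebellum comes mostly from other cells. The deposited lists carry no value per animal, so neither the spread between animals nor library depth can be given.

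5hmC is made from 5-methylcytosine by the TET dioxygenases. It is abundant in neurons, where it accumulates over the bodies of active genes and at enhancers and is scarce on the X chromosome and in repeats packed as heterochromatin. FXTAS affects carriers of a premutation, an expanded but still transcribed CGG repeat in the 5′ untranslated part of FMR1, and Purkinje cell loss is among its known changes in the cerebellum. In affinity capture the DNA is sheared and fragments that hold a labelled 5hmC are pulled down, so the smallest stretch that can be resolved is about as long as a fragment. How near the narrow regions come to that length was not tested.

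The narrow regions were close to each other in length. Their widths had a median of 457 bp with quartiles of 420 and 481 bp, and 5% were shorter than 363 bp. They covered 615 kb, or 7.59% of the base pairs in the wildtype-specific list. The shortest of all had 294 bp, on chromosome 6 at 5821163-5821456, and it had a score of 93.92. The next had 303 bp (score 65.54; chromosome 2, 181535599-181535901), 309 bp (50.32; chromosome 8, 120857368-120857676), 314 bp (53.7; chromosome 12, 73137120-73137433) and 316 bp (69.48; chromosome 16, 33318129-33318444). The scores of these 5 regions ranged from close to the list's lowest value, 50, to well above its median of 62.38. All coordinates are mm9 and counted from 1, and the score is the authors', on a scale that was not stated.

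The limit of 500 bp lay on the rising side of the width distribution. Widths of 475 to under 500 bp were held by 448 wildtype-specific regions, 500 to under 525 bp by 665 and 525 to under 550 bp by 443. The most frequent single width was 514 bp, with 46 regions, and an average of 32.3 regions fell on each length from 510 to under 520 bp. That average was 18.4 for 480 to under 500 bp and 17.7 for 525 to under 550 bp. The mode of the list thus lay just above the limit, outside the narrow regions. In the rCGG-specific list, 28 regions had 475 to under 500 bp and 45 had 500 to under 525 bp, and 111 of 4311 (2.57%) were under 500 bp.

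**Figure D1:**
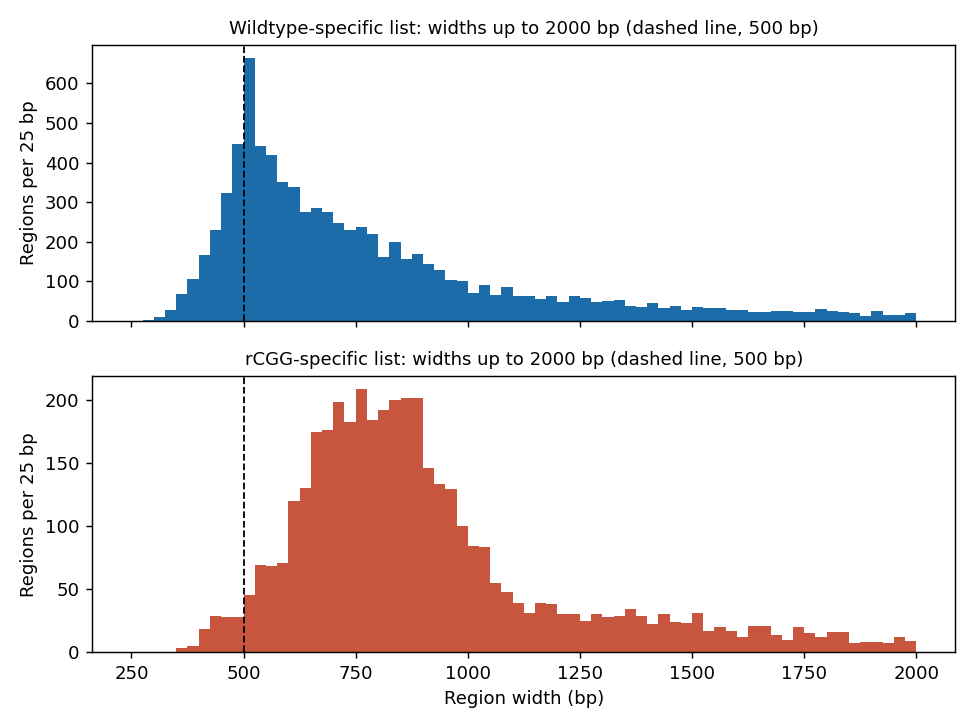
Number of regions per 25 bp of width (horizontal axis, bp, up to 2000) in the wildtype-specific list (top) and the rCGG-specific list (bottom), with a dashed line at 500 bp. The wildtype-specific list peaks in the class that begins at the line, with 665 regions, and the rCGG-specific list lies mostly to the right of it.

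Regions just inside and just outside the limit had overlapping scores. On chromosome 1, regions of 499 bp lay at 79995532-79996030 with a score of 117.39, at 107819513-107820011 with 59.24 and at 177360511-177361009 with 69.14. Regions of 500 bp on the same chromosome lay at 34632740-34633239 with 50.92, at 64584119-64584618 with 97.78 and at 169479523-169480022 with 54.45. The highest of these scores was inside the limit and the lowest outside it. In all, 19 wildtype-specific regions had exactly 499 bp and 26 had exactly 500 bp.

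Compared with all longer regions, narrow regions had similar scores around the middle of the range and lower ones at the top. Their median score was 62.18 (interquartile range 54.7 to 73.9) against 62.38 (55.3 to 75.2). A score of at least 100 was held by 48 narrow regions, 3.48% (2.58% to 4.59%), against 485 or 6.66% (6.10% to 7.26%) of the others. At least 150 was reached by 2 narrow regions (0.145%) and 74 others (1.02%). A score of at least 75 was held by 22.3% of narrow regions, 20.9% of regions of 500 to under 700 bp and 28.8% of those of 700 bp or more. Among the narrow regions this share was 18.9% at 450 to under 500 bp and 25.8% at 400 to under 450 bp. The narrow share was 16.9% (15.3% to 18.6%) of regions scored 50 to under 55 and 14.2% (12.8% to 15.8%) of those scored 75 or more. Width and score ran together only weakly over the 8658 regions, with a Spearman rho of 0.105. Both values come from the same peak.

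The 5 best-scored narrow regions lay on 5 chromosomes. The highest score, 169.74, belonged to 357 bp on chromosome 9 at 3002808-3003164. That region was a member of the longest chain of the list, 16 successive wildtype-specific regions with gaps under 10 kb at the start of the chromosome 9 assembly, of which 3 were narrow. The others there were 418 bp at 3017298-3017715 with a score of 66.88 and 344 bp at 3034038-3034381 with 119.36. The nearest rCGG-specific region lay over 10 Mb away from each. Scores in this chain ran from 66.88 to 626.83, where the upper quartile of the whole wildtype-specific list was 74.97. Chromosome 14 at 120365927-120366360 followed with 163.05, in 434 bp. It stood almost alone in its list, with the nearest wildtype-specific region 496 kb away and an rCGG-specific one 57.3 kb away. Chromosome 3 at 105595262-105595627 had a score of 148.37, chromosome 1 at 107364875-107365195 had 143.45 and chromosome 4 at 69753449-69753944 had 141.64. For these 3, the nearest wildtype-specific region was 24.1 to 159 kb away and the nearest rCGG-specific one 61.0 to 163 kb.

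Narrow regions lay farther from the rest of their list. Their median distance to the nearest other wildtype-specific region was 61.0 kb (interquartile range 18.8 to 155 kb; 95% interval of the median 54.7 to 68.6 kb), against 36.6 kb (35.3 to 38.3 kb) for the other regions. Another wildtype-specific region lay within 10 kb of 229 narrow regions, 16.6% (14.7% to 18.7%), and of 1704 others, 23.4% (22.4% to 24.4%). The difference was -6.79 percentage points (95% Newcombe interval -8.90 to -4.52). Within 100 kb the shares were 64.0% and 75.04%. These intervals take regions as independent, which neighbouring regions are not, and cover counting error only. On 17 of 19 autosomes the share within 10 kb was the lower for narrow regions, and chromosomes 6 and 17 were the exceptions.

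Compared with all longer regions, narrow regions had fewer wildtype-specific and slightly more rCGG-specific regions around them. Within 500 kb of the midpoint there were on average 5.85 other wildtype-specific regions around a narrow one (median 5) and 7.94 around another (median 7). Averaged per chromosome, the number was the lower for narrow regions on all 19 autosomes. The mean number of rCGG-specific regions in the same space was 2.47 against 2.22, and it was the higher for narrow regions on 16 of 19 autosomes, the exceptions being chromosomes 1, 3 and 18. Of all regions in that space, 70.3% were wildtype-specific around narrow regions and 78.1% around the others. A total of 99 narrow regions, 7.18% (5.88% to 8.68%), had no other region of their list within 500 kb, against 184 or 2.53% (2.18% to 2.91%). At the other end, 10 or more were found around 19.4% (17.3% to 21.6%) of narrow regions and 33.5% (32.4% to 34.6%) of the others. Regions of 500 to under 700 bp had a mean of 2.46 rCGG-specific regions within 500 kb, close to that of the narrow ones. Their mean of 6.53 wildtype-specific regions lay between that of the narrow and that of all longer regions. So did their share with 10 or more wildtype-specific regions, 22.5% (21.0% to 24.0%). For 3.80% (3.15% to 4.54%) of them no other region of the list lay within 500 kb, which is nearer to the share of all longer regions.

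Narrow regions were also nearer to rCGG-specific regions. The median distance was 148 kb (95% interval of the median 132 to 159 kb) against 179 kb (172 to 185 kb). An rCGG-specific region lay within 10 kb of 83 narrow regions, 6.02% (4.83% to 7.41%), and of 241 others, 3.31% (2.91% to 3.75%). Within 100 kb the counts were 538, or 39.0% (36.5% to 41.7%), and 2387, or 32.8% (31.7% to 33.9%), a difference of 6.25 percentage points (Newcombe interval 3.49 to 9.07). The share within 100 kb was the higher for narrow regions on 14 of 19 autosomes, and chromosomes 1, 2, 3, 12 and 18 were the exceptions. For 466 narrow regions, 33.8% (31.3% to 36.4%), the nearest region of either list was rCGG-specific, against 1663 or 22.8% (21.9% to 23.8%) of the others.

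No step in these values was seen at 500 bp. Another wildtype-specific region lay within 10 kb of 17.0% (14.4% to 19.8%) of regions of 450 to under 500 bp and of 15.6% (13.5% to 17.9%) of those of 500 to under 550 bp. The share was 18.9% (15.8% to 22.4%) at 650 to under 700 bp, 23.5% (21.7% to 25.4%) at 700 to under 1000 bp and 32.8% (30.5% to 35.2%) at 1000 to under 2000 bp. For an rCGG-specific region within 100 kb the shares were 38.5% (35.0% to 42.0%) at 450 to under 500 bp and 37.5% (34.7% to 40.5%) at 500 to under 550 bp. That share was 34.3% (32.3% to 36.4%) at 700 to under 1000 bp and 19.8% (16.7% to 23.3%) at 2000 bp or more. Against the 3052 regions of 500 to under 700 bp alone, the narrow regions differed by -0.551 percentage points (Newcombe interval -2.88 to 1.88) in the first share and by 1.69 points (-1.39 to 4.80) in the second. Both intervals hold 0. The contrast between narrow and other regions in these 2 shares thus came mostly from regions of 700 bp or more.

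**Figure D2:**
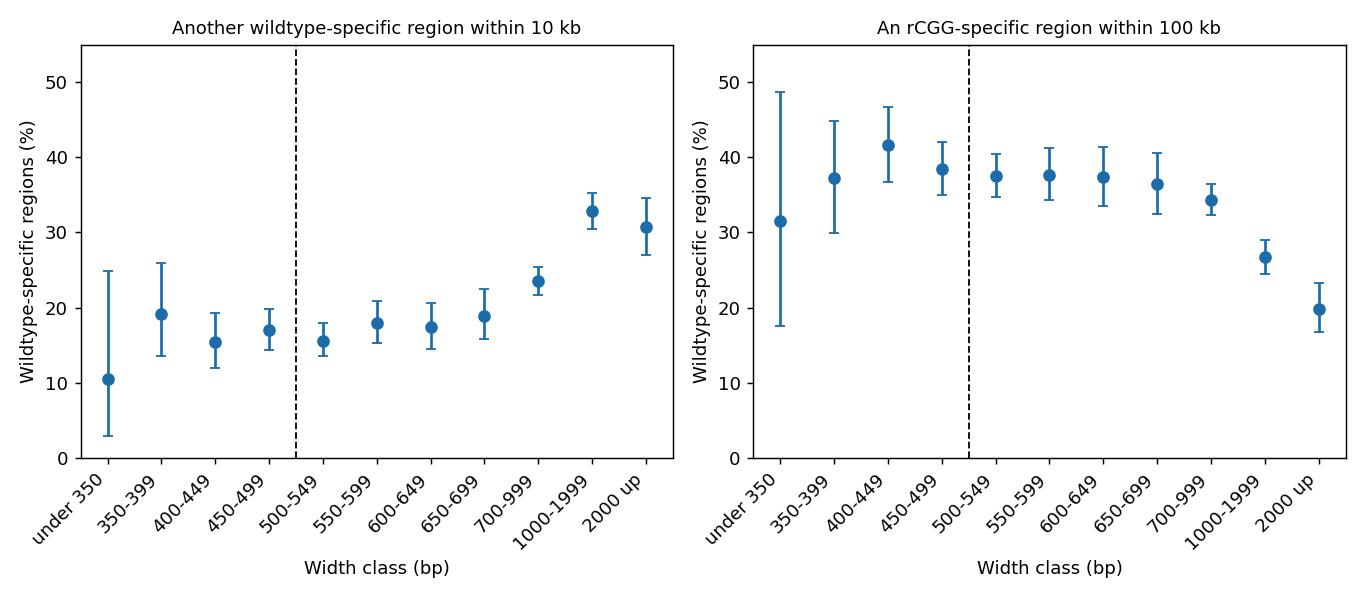
Share of wildtype-specific regions (vertical axis, %) with another wildtype-specific region within 10 kb (left) and with an rCGG-specific region within 100 kb (right), by width class (bp), with 95% exact binomial intervals and a dashed line at 500 bp. The classes on either side of the line have overlapping intervals, 17.0% and 15.6% on the left and 38.5% and 37.5% on the right, and the shares change mainly from 700 bp upward.

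Isolation set the narrow regions apart from the 500 to under 700 bp class more than close spacing did. No other region of the list lay within 500 kb of 7.18% of narrow regions, 3.80% (3.15% to 4.54%) of the middle class and 1.61% (1.25% to 2.03%) of the 4228 regions of 700 bp or more. Narrow regions exceeded the middle class by 3.38 percentage points there (Newcombe interval 1.93 to 4.99). The nearest region of either list was rCGG-specific for 33.8%, 29.9% (28.3% to 31.6%) and 17.7% (16.6% to 18.9%), in the same order, and the first exceeded the second by 3.90 points (0.949 to 6.90). The median distance to the nearest region of the same list was 61.0 kb (54.7 to 68.6 kb), 50.8 kb (47.3 to 55.1 kb) and 29.2 kb (27.7 to 31.0 kb), so that the first 2 intervals just overlap. An rCGG-specific region lay within 10 kb of 6.02%, 4.82% (4.08% to 5.64%) and 2.22% (1.80% to 2.71%), and the interval of the difference between the first 2, -0.195 to 2.76 points, holds 0.

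**Figure D3:**
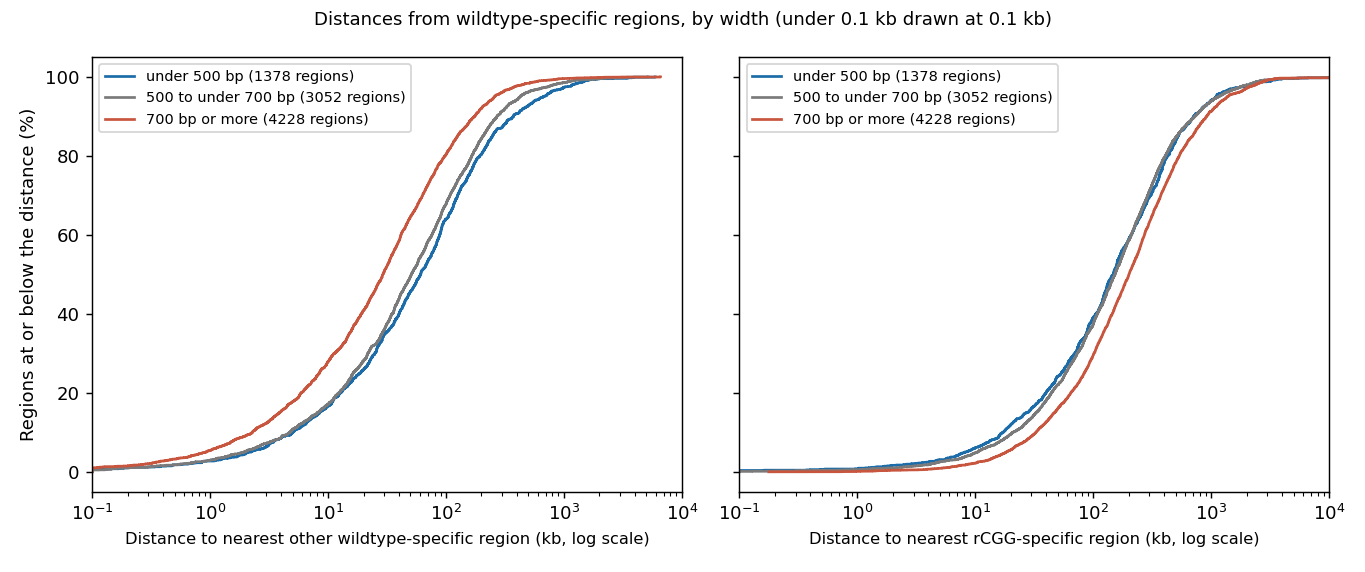
Cumulative share of wildtype-specific regions (vertical axis, %) by distance to the nearest other wildtype-specific region (left) and to the nearest rCGG-specific region (right), in kb on a log axis, for regions under 500 bp, of 500 to under 700 bp and of 700 bp or more. On the left the narrow regions reach 50% at 61.0 kb and the longest class at 29.2 kb, and on the right the narrow and middle classes run close together, with medians of 148 and 153 kb.

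The spacing of narrow regions was similar at low and high score. Another wildtype-specific region lay within 10 kb of 15.5% of narrow regions scored 50 to under 55, against 21.8% of other regions with such scores. At a score of 75 or more the shares were 17.3% (13.2% to 22.0%) and 26.3% (24.3% to 28.3%), with median distances of 70.5 and 30.8 kb. For an rCGG-specific region within 100 kb the shares were 40.6% and 35.1% in the lowest score class, and 34.5% (29.2% to 40.1%) and 29.6% (27.5% to 31.7%) in the highest. In each of the 4 score classes compared (50 to under 55, 55 to under 60, 60 to under 75, and 75 or more) the first share was lower and the second higher for narrow regions.

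Narrow regions made up a larger share of the list where the list was sparse. Of 1739 windows of 1 Mb with any wildtype-specific region, 347 held exactly 1, and 100 of these lone regions (28.8%, 24.1% to 33.9%) were narrow. The share was 20.6% (18.6% to 22.8%) in windows with 3 or 4 regions, 16.7% (15.5% to 18.1%) in those with 5 to 9 and 10.1% (8.79% to 11.5%) in those with 10 to 14. In the 60 windows with 15 or more it was 8.76% (7.13% to 10.6%), or 93 of 1062 regions. All wildtype-specific regions were narrow in 118 windows, which held 140 regions and include the 100 windows with a lone narrow region.

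**Figure D4:**
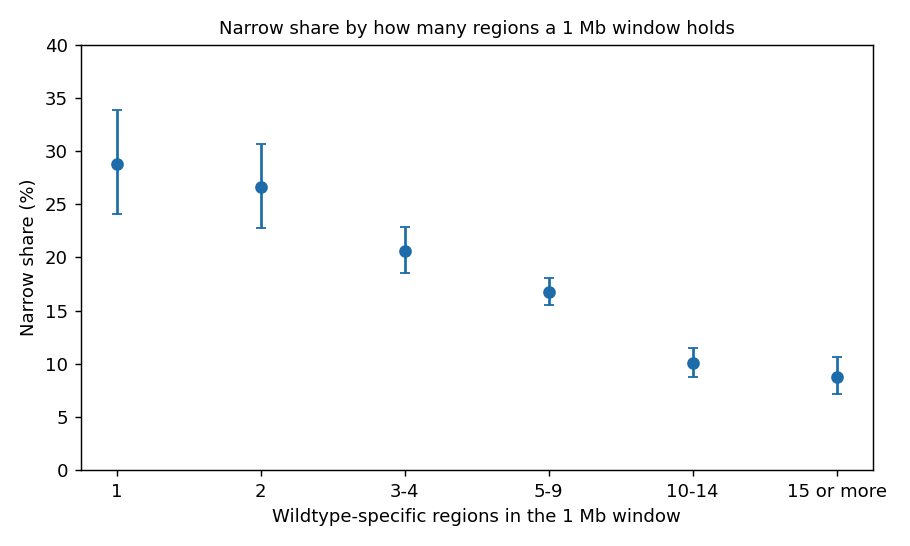
Narrow share of wildtype-specific regions (vertical axis, %, with 95% exact binomial intervals) in 1 Mb windows grouped by the number of wildtype-specific regions they hold (horizontal axis). The share was 28.8% in windows with 1 region and 8.76% in windows with 15 or more.

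Few windows gathered many narrow regions. At least 1 was found in 941 windows, and 22 held 4 or more. The highest count was 5, reached in 2 windows that differed in their surroundings. On chromosome 7 at 54000001-55000000 all 5 wildtype-specific regions were narrow, beside 1 rCGG-specific region. On chromosome 15 at 79000001-80000000 the 5 narrow ones were among 21 wildtype-specific regions, with 0 rCGG-specific. The first in genome order of the 20 windows with 4 were chromosome 1 at 107000001-108000000 (4 of 5 wildtype-specific regions narrow), chromosome 2 at 32000001-33000000 (4 of 18) and chromosome 2 at 102000001-103000000 (4 of 7).

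Most narrow regions lay outside chains, runs of successive wildtype-specific regions with gaps under 10 kb. A total of 1149 narrow regions, 83.4% (81.3% to 85.3%), were on their own, against 82.8% (81.4% to 84.2%) of regions of 500 to under 700 bp, 72.1% (70.7% to 73.4%) of those of 700 bp or more and 77.7% of the whole list. The narrow share was 17.1% (16.2% to 18.0%) of the 6725 regions outside any chain, 12.9% (11.3% to 14.8%) of regions in pairs and 6.39% (4.09% to 9.43%) of regions in chains of 3. In the 21 chains of 4 or more it was 15.2% (8.97% to 23.6%), or 16 of 105 regions, an interval that holds the share of the whole list. Of the 734 pairs, 567 had no narrow member, 144 had 1 and 23 had 2. No run of 3 successive narrow regions with such gaps was found, and runs of 2 numbered 26.

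The closest runs of 2 narrow regions lay on chromosomes 17, 15, 2 and 4. At chromosome 17, 48066841-48067983, regions of 443 and 498 bp were 202 bp (0.202 kb) apart, with scores of 83.15 and 66.57. At chromosome 15, 101781103-101782406, regions of 423 and 402 bp were 0.479 kb apart, with scores of 76.01 and 82.58. The next 3 were on chromosome 17 at 23971021-23973624, chromosome 2 at 25114879-25117850 and chromosome 4 at 65735059-65738133, with gaps of 1.69, 2.02 and 2.10 kb. Since all runs had the same number of regions, these 5 were taken by shortest span, a choice made after the values were seen.

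The nearest neighbour of a narrow region was narrow more often than that of another region. The nearest other wildtype-specific region was narrow for 275 narrow regions, 20.0% (17.9% to 22.2%), and for 1064 others, 14.6% (13.8% to 15.4%), where the whole list had 15.9%. Among narrow regions with no wildtype-specific region within 10 kb, the share was 19.5% (17.2% to 21.9%), close to that of all narrow regions. The matching share was not taken for other regions, so whether the excess holds in this subset is not shown. These intervals take regions as independent, although narrow regions that are nearest to each other enter the count from both sides. The narrow share also varied with local density, from 28.8% in 1 Mb windows with 1 region to 8.76% in those with 15 or more, and the comparison was not adjusted for it.

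The narrow regions closest to an rCGG-specific region lay almost edge to edge with it. On chromosome 7, a narrow region of 425 bp at 97004715-97005139 was 26 bp from an rCGG-specific region of 1398 bp at 97005166-97006563, with scores of 51.37 and 62.7. On chromosome 12, a narrow region of 495 bp at 21418343-21418837 was 44 bp from one of 702 bp at 21418882-21419583, with scores of 71.6 and 55.32. On chromosome 1, the region 33620864-33621296 was 51 bp from 33621348-33622010. Gaps of 94 and 95 bp followed, on chromosome 7 between 82395391-82395818 and 82393926-82395296, and on chromosome 9 between 56171684-56172154 and 56172250-56172955. No narrow region overlapped an rCGG-specific one, as against 1 of the 7280 others. Within 1000 bp of one lay 11 narrow regions, 0.798% (0.399% to 1.42%), and 24 others, 0.330% (0.211% to 0.490%).

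In these close pairs the rCGG-specific region was the longer. For all 83 narrow regions with an rCGG-specific region within 10 kb, the nearest such region was wider, with a median of 805 bp against 462 bp. Few rCGG-specific regions are under 500 bp, so this order follows in large part from how the narrow regions were selected. Among the 241 other wildtype-specific regions with such a neighbour, it was the wider in 188 (78.0%), with a median of 891 bp against 646 bp.

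The narrow share ranged from 11.4% to 19.5% over the autosomes. It was highest on chromosome 16 with 19.5% (14.9% to 24.7%; 52 of 267), chromosome 18 with 19.3% (14.6% to 24.7%; 48 of 249) and chromosome 6 with 19.1% (15.5% to 23.0%; 86 of 451). It was lowest on chromosome 19 with 11.4% (7.75% to 15.9%; 29 of 255), chromosome 15 with 12.7% (9.59% to 16.3%; 51 of 402) and chromosome 17 with 12.8% (9.72% to 16.5%; 51 of 397). The intervals of all 19 autosomes held the autosomal share of 15.8%. The highest and the lowest autosome, chosen for their shares, were 8.10 percentage points apart.

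The density of narrow regions varied over nearly the same range as that of the others. Narrow regions numbered 0.573 per Mb over the autosomes, counted between the first and last region of each chromosome, and ranged from 0.381 on chromosome 3 to 0.826 on chromosome 11, a 2.17-fold range. For the other regions the extremes were the same chromosomes, with 1.92 and 4.76 per Mb, a 2.48-fold range. Where genes were dense, the narrow share was the lower. On the 5 autosomes with most protein-coding genes per Mb (7, 11, 19, 17 and 2) it was 14.1% (12.8% to 15.5%), on the 5 with fewest (13, 3, 1, 18 and 12) 18.0% (16.3% to 19.9%) and on the remaining 9 it was 16.0% (14.9% to 17.2%). Between these classes, the density fell from 0.643 to 0.487 per Mb for narrow regions and from 3.91 to 2.22 per Mb for the others. Across the 19 autosomes, the narrow share and genes per Mb had a Pearson r of -0.718 and a Spearman rho of -0.754. With the density of the other wildtype-specific regions, the narrow share had a Pearson r of -0.769 and a Spearman rho of -0.774. That density itself rose with genes per Mb (Pearson r 0.865). The other regions are also part of the total from which the narrow share is taken. By construction this favours a negative correlation of the share with their density. Which density the narrow share follows was not tested. These correlations describe chromosomes that share the same libraries, and genes were counted in GRCm38.

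**Figure D5:**
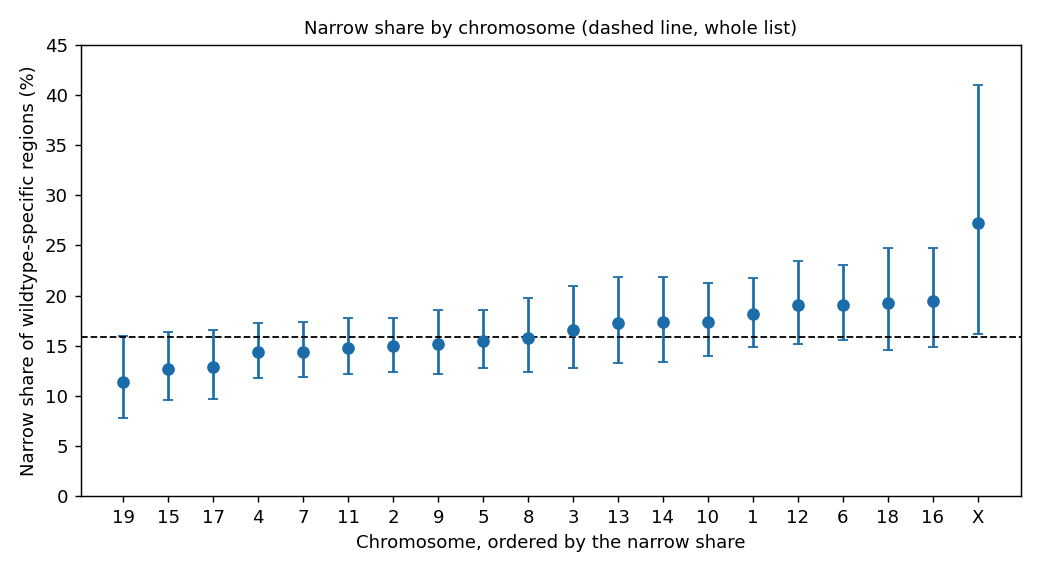
Narrow share of wildtype-specific regions (vertical axis, %, with 95% exact binomial intervals) for the 19 autosomes and X, ordered by the share, with a dashed line at the share of the whole list. The autosomes lie between 11.4% and 19.5%, and X lies at 27.3% with a wide interval.

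X had the highest narrow share, from few regions. Of its 55 wildtype-specific regions 15 were narrow, or 27.3% (16.1% to 41.0%), which is 11.4 percentage points above the autosomes (Newcombe interval 1.41 to 24.4). The density of narrow regions on X was 0.164 times that on the autosomes, and that of the other regions 0.0826 times. The sex of the animals is not in the labels used here. The 15 regions spread from 7177349 to 162916218, had widths of 343 to 497 bp and scores of 51.01 to 82.43 with a median of 66.3. Of these, 6 lay below 14 Mb, among them 7459126-7459622 (score 71.19) and 7507722-7508216 (51.09), and 6 had no other wildtype-specific region within 500 kb. An rCGG-specific region lay within 100 kb of 3 of the 15, or 20%, the same share as among the other wildtype-specific regions of X.

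The most isolated narrow regions, named after their distances were seen, had no region of either list nearby for at least 1570 kb. On chromosome 7, a region of 484 bp at 46774607-46775090 lay 3791 kb from the nearest region. On X, 162915733-162916218 lay 2717 kb away from it and 157024646-157024988 lay 1570 kb away. The distance was 2607 kb for 21088196-21088546 on chromosome 17, which had 351 bp and a score of 86.52. The first region of chromosome 1, at 3663260-3663646, lay 2561 kb from its nearest neighbour, which was rCGG-specific. In all, 44 narrow regions (3.19%, 2.33% to 4.26%) had no region of either list within 500 kb, against 52 others (0.714%, 0.534% to 0.936%).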

How the data were processed

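The members, lists and limits were chosen with earlier results of these data known. The authors aligned reads with Bowtie 0.12.9 and also used HOMER, on the genome build mm9, per the submitters' processing notes. Peak names in the deposited lists are those MACS writes; its settings, its control and any pooling of libraries were not given in the sources used here. Each region carries a score deposited by the authors without a header (lowest value 50 in both lists) and a start and end. Width was end minus start. Distances were measured between nearest edges, and neighbourhoods of 500 kb between midpoints. Shares have 95% Clopper-Pearson intervals, differences of shares Newcombe intervals, and medians intervals from order statistics. No test was run, because width, position and score come from the same comparison. No values per animal were used, so depth is unknown and no animal could be left out. Distance functions were tested on simulated data. Python 3.11.15, numpy 2.4.6, pandas 2.3.3, scipy 1.17.1, statsmodels 0.14.6 and matplotlib 3.10.9 were used. Protein-coding genes per chromosome were counted in the RefSeq table of GRCm38.

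Regions were named by a rule: the 5 narrowest, the 5 best-scored, 3 on each side of the limit in genome order, the 5 windows of 1 Mb with most narrow regions, the 5 longest runs of narrow regions, the 5 nearest to an rCGG-specific region, and the 3 autosomes at each end. The rule gave a range for X, where 2 of the 15 regions were picked after seeing them. Planned gene features, gene lists and sequences need mm9 annotation or sequence, which was not used here.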

Additional observations from a re-analysis of the deposited data

How the results depend on the processing

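Comparison with regions of 500 to under 700 bp alone, the mean over autosomes, omission of the longest chain, and all settings for the nearest region of either list and for the neighbourhood of 500 kb were chosen after seeing the data. The difference in the share with a wildtype-specific neighbour within 10 kb, -6.79 points in the main analysis, stayed negative in 14 of 14 alternatives, but its interval held 0 with a width limit of 400 bp (-9.47 to 0.964) and against regions of 500 to under 700 bp (-2.88 to 1.88). It lay outside the main interval at -9.19 with a width limit of 600 bp, -9.004 for scores of at least 75, and -1.65, -9.70 and -11.0 with distances of 1, 20 and 100 kb, and it was -0.551 against regions of 500 to under 700 bp. The difference for an rCGG-specific region within 100 kb (6.25 points) stayed positive in 14 of 14, but its interval held 0 with a limit of 400 bp, at 2.47 (-3.81 to 9.23), for scores of at least 75, at 4.97 (-0.550 to 10.8), and against 500 to under 700 bp, at 1.69 (-1.39 to 4.80). It was 2.71 and 2.79 with distances of 10 and 500 kb. The difference in regions whose nearest neighbour was rCGG-specific (11.0 points) became 4.57 with a limit of 400 bp, with an interval that held 0 (-1.23 to 11.1), 14.8 for scores of at least 75 and 3.90 against 500 to under 700 bp. The mean number of wildtype-specific regions within 500 kb differed by -2.09, and by -1.80 and -2.46 with limits of 400 and 600 bp, -3.00 and -1.71 for scores of at least 75 and under 60, and -0.679 against 500 to under 700 bp. The difference of median scores (-0.2) reversed to 0.065 and 0.295 with limits of 400 and 450 bp and to 0.88 against 500 to under 700 bp; it has no stable sign. The spread between autosomes (8.10 points) was 18.1 with a limit of 600 bp, a class with more regions. The share of narrow regions with a narrow nearest neighbour was 4.76%, 8.75% and 45.1% with limits of 400, 450 and 600 bp, which hold 2.43%, 7.00% and 37.6% of the list. The narrow share of the list was 14.2% for scores of at least 75 and 17.7% when regions within 10 kb counted once, as their narrowest member, which raises it by construction. No paired analysis was possible because neither file separates the animals. Gene and sequence alternatives were not run. Library depth, which no source used here gives, limits every value.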

Other observations

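The rCGG-specific list held 111 regions under 500 bp, with a median score of 55.1 against 59.5 for the other 4200 regions of that list. As in the wildtype-specific list, they were isolated within 500 kb more often than the longer regions of their list. Some other differences from the longer regions were not alike in the lists. No other rCGG-specific region lay within 500 kb of 16.2% of them and of 9.81% of the others, a difference of 6.41 percentage points (Newcombe interval 0.625 to 14.4), and no region of either list within 500 kb of 6.31% and 2.17% (4.14 points, 0.885 to 10.3). In the wildtype-specific list these differences were 4.66 and 2.48 points, and the shares of narrow regions were lower, at 7.18% and 3.19%. Another rCGG-specific region lay within 10 kb of 15.3% of them and of 9.38% of the others, a difference of 5.93 points (0.331 to 13.8). This is opposite in sign to that in the wildtype-specific list, but rests on 17 of the 111 regions. With limits of 1, 5 and 20 kb the difference was also positive, with intervals that held 0. With 100 kb it was -8.79 points (-17.6 to 0.631), the same sign as in the wildtype-specific list. A wildtype-specific region lay within 100 kb of 45.9% and 54.5% (difference -8.51, interval -17.6 to 0.867). The difference between the lists was not tested. The median distance to the nearest region of the same list was 133 kb against 104 kb. Of the rCGG-specific regions under 500 bp, 0 reached a score of 100, against 3.71% of the longer ones.

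Some narrow wildtype-specific regions lay in the densest parts of the list, and were picked after seeing their counts. On chromosome 7, a region of 389 bp at 52926951-52927339 had 29 other wildtype-specific regions and 1 rCGG-specific region within 500 kb. The region 80386164-80386613 on chromosome 10, of 450 bp, had 27 and 1.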
